A study of Mus musculus with 9 samples.

Results

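The proteins of the hair shaft and of the sheaths that mould it were followed on 9 mouse skin arrays through the probes whose gene symbol begins with KRTAP, for the keratin-associated proteins, or is one of 29 listed hair keratins and follicle genes. The rule found 29 genes of the 17778 symbols on the array, measured by 33 of its 26423 probes. Of the 29 listed symbols 26 had a probe, and Krt72, Krt83 and Krt85 had none under that name. The other 6 probes belong to Krtap13, Krtap14 and Krtap15. No symbol in the probe table holds a hyphen, so keratin-associated protein genes with hyphenated names were not analysed here.

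All arrays came from female BALB/c mice, an albino strain, with the dorsal skin shaved and treated daily for 7 days, in groups of 3 arrays. The vanillin group received imiquimod on the skin and 100 mg/kg vanillin by mouth. The IMQ group received imiquimod alone, a Toll-like receptor agonist cream that is used to induce psoriasis-like inflammation in mice. The mock group received Vaseline cream. One label of the vanillin group words its treatment as imiquimod "and/or" vanillin, while its treatment tag names both. Age is not given, and the labels do not say that the arrays are separate mice, so the p-values rest on differences among arrays that could be technical.

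Hair shafts are made in the bulb of a growing follicle, where dividing matrix cells stop cycling, move upwards and fill with filaments of paired type I and type II hair keratins. Keratin-associated proteins then crosslink these filaments through cysteine bonds, or pack between them where they are rich in glycine and tyrosine. The inner root sheath and the companion layer around the shaft make keratins of their own, and Foxn1, Hoxc13 and Msx2 are transcription factors of the matrix and the differentiating shaft. Mouse back follicles cycle through growth, regression and rest, and these genes are active mainly during growth.

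The promoters of 5 members are shown because their genes mark the patterns described below: 3 neighbouring type I shaft keratins that were lower in both imiquimod-treated groups, and a keratin-associated protein and a nail and tongue type II keratin that were lower in the vanillin group than in the IMQ group. Each sequence covers the 250 bases before the annotated start, from RefSeq on GRCm38.p6, and all lie on the minus strand. They are Krt34 at chr11:100041555-100041804, Krt31 at chr11:100050552-100050801, Krt33b at chr11:100029869-100030118, Krtap14 at chr16:88826146-88826395 and Krt84 at chr15:101532821-101533070. Capitals mark exact matches on either strand to TATAAA, a form of the TATA box (TTTATA on the opposite strand). They also mark CTTTGAA, a sequence bound by LEF1 and TCF factors (TTCAAAG on the opposite strand). Variant forms, such as the tatataa in the Krtap14 sequence, were not searched and stay in small letters.
Krt34: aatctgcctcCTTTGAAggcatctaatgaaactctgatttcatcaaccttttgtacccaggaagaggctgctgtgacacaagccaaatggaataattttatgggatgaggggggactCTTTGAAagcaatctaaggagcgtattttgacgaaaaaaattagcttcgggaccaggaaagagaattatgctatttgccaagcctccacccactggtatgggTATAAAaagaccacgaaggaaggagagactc
Krt31: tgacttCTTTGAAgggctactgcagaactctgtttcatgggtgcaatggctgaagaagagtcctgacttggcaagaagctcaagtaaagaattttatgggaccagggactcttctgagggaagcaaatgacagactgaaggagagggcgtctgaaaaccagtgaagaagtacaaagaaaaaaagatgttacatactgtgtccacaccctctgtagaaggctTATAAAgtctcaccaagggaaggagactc
Krt33b: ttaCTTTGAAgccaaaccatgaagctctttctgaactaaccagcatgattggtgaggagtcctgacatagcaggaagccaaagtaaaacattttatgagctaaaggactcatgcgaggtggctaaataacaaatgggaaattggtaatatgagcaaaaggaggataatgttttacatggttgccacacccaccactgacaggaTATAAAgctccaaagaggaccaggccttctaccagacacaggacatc
Krtap14: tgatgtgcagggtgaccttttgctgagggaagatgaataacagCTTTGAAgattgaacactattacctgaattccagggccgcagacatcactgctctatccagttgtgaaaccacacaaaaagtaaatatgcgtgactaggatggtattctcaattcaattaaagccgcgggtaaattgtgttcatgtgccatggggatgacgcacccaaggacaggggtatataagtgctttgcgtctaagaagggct
Krt84: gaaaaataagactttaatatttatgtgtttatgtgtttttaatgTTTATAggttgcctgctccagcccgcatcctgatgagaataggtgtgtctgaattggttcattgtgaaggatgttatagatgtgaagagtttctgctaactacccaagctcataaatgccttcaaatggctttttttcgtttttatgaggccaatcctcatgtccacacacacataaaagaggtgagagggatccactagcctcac
TATAAA begins 31 bases before the start of Krt34, 29 bases before that of Krt31 and 47 bases before that of Krt33b. CTTTGAA lies 240 and 133 bases before the start in Krt34, 244 bases before it in Krt31, 247 in Krt33b and 207 in Krtap14. In Krt84 the TATA letters were found only on the opposite strand, 206 bases before the start. The promoter table holds 26 promoters for 23 member genes. TATAAA was in 14 of them (53.8%), against 12.4% of all 32851 promoters of that length. CTTTGAA was in 7 member promoters (26.9%), those of Krt31, Krt32, Krt33b, Krt34, Krtap14, Krtap15 and Tchh, against 4.5% of all promoters. These shares describe letters in a window, and the arrays did not measure binding.

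The hair genes were among the brightest features of the arrays. Of the 33 probes, 23 lay above the 95th percentile of mean intensity and 15 above the 99th. The RNA extraction text names muscle while the tissue label says skin, and both kinds of marker were bright: the muscle genes Acta1 and Ckm lay at percentiles 99.3 and 99.1. Array medians lay between 628.9 and 631.1, and intensities at one rank among the brightest 1000 probes differed between arrays by at most 0.189%. The value of a very bright probe was therefore set by its rank, and a change of total signal cannot be seen. Arrays of a group correlated at 0.984 to 0.994 (vanillin), 0.992 to 0.996 (IMQ) and 0.989 to 0.992 (mock). Over the members the median SD was 0.0872 log2 units in the vanillin group, 0.0296 in the IMQ group and 0.169 in the mock group, against 0.17, 0.0792 and 0.158 over all probes. Mock replicate 1 was the lowest mock array for 16 of the 33 probes. Hair keratins and keratin-associated proteins include near-identical genes, and probe sequences were not used here, so signal shared between relatives cannot be told apart.

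**Figure D1:**
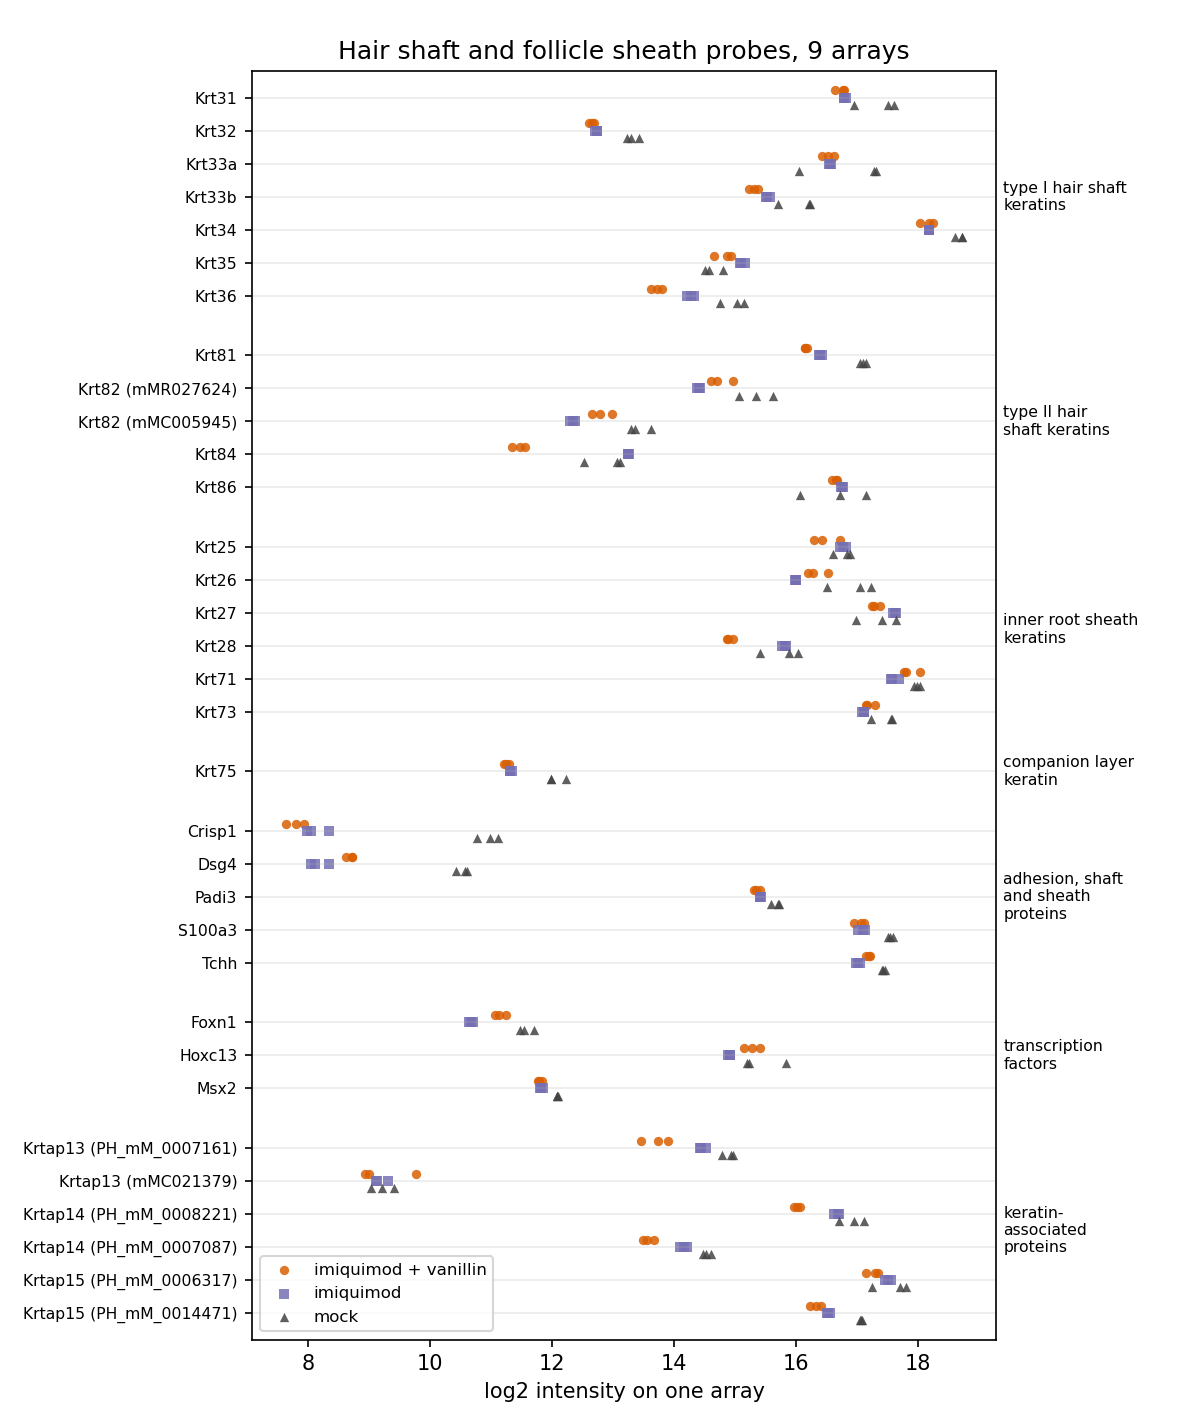
Log2 intensity (x axis) of each of the 33 probes (rows, grouped by role) on every array, with circles for imiquimod plus vanillin, squares for imiquimod and triangles for mock. The mock arrays lie to the right for most probes, and the 3 IMQ arrays lie close together, with a median SD of 0.0296 against 0.169 in mock.

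The first comparison asked what 7 days of imiquimod did to the hair genes. They were mostly lower: 23 of 33 probes fell, 1 rose and 9 were not called by limma at an adjusted p under 0.05 (Benjamini-Hochberg over all probes). Groups did not overlap for 2 members higher and 23 lower with imiquimod, against 31.9% and 36.1% of all probes. Of all probes, 29.6% were called lower, 24% higher and 53.6% in either direction. The median log2 difference was -0.44 over the members and -0.04 over all probes. On each IMQ array the median member differed from the mean of the mock arrays by -0.45, -0.47 and -0.42 log2 units, while the single mock arrays lay at -0.01, 0.02 and 0.06. In bulk skin, fewer follicle cells and less RNA per cell cannot be told apart.

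The largest falls were in 2 proteins outside the keratin families. Crisp1, a cysteine-rich secretory protein best known from the epididymis, read 8.05, 8.35 and 7.99 on the IMQ arrays, against 10.78, 10.98 and 11.12 on the mock arrays (log2 intensity). Dsg4, the desmosomal cadherin of the shaft whose loss gives brittle hair, read 8.05, 8.34 and 8.11 on the IMQ arrays, against 10.43, 10.58 and 10.61 on the mock arrays. Neither gene had an IMQ array near any mock array. Crisp1 fell by 2.83 ± 0.13 log2 units (SE, n = 3 per group, adjusted p = 2.12e-06, 7.10-fold lower), and Dsg4 fell by 2.38 ± 0.10 (adjusted p = 1.20e-06, 5.19-fold lower). The other 3 proteins of this role were far brighter and changed less, without overlap. S100a3, a calcium-binding protein of the hair cuticle, read 17.12, 17.02 and 17.09 on the IMQ arrays and 17.54, 17.51 and 17.58 on the mock arrays, and fell by 0.47 ± 0.08 log2 units (adjusted p = 0.00129). Tchh, trichohyalin of the inner root sheath and medulla, fell by 0.42 ± 0.07 (adjusted p = 0.00125). Padi3, the enzyme that converts arginines of trichohyalin to citrulline, fell by 0.27 ± 0.08 (adjusted p = 0.0162). All 5 probes of this role were thus lower with imiquimod.

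Type I shaft keratins fell in 5 of 7 probes and rose in 1. Krt34 was the brightest member, with 18.18 on each of the 3 IMQ arrays against 18.72, 18.61 and 18.72 on the mock arrays. In ranks it was probe 8 of its array on every IMQ array, and probe 1, 2 and 1 on the mock arrays. It fell by 0.50 ± 0.08 log2 units (adjusted p = 0.00115). Krt36 read 14.33, 14.21 and 14.27 on the IMQ arrays and 14.75, 15.03 and 15.14 on the mock arrays, without overlap, and fell by 0.70 ± 0.11 (adjusted p = 0.000878). Krt32, a keratin of the shaft cuticle, fell by 0.59 ± 0.08 (adjusted p = 0.00042). The cortex keratins Krt31 and Krt33b fell by 0.55 ± 0.16 (adjusted p = 0.0173) and 0.51 ± 0.14 (adjusted p = 0.0127). With array weights the Krt33b difference was -0.24 (adjusted p = 0.0362). Krt35, among the first shaft keratins made as cells leave the matrix, went the other way and was the only member called higher. It read 15.16, 15.08 and 15.09 on the IMQ arrays against 14.51, 14.58 and 14.80 on the mock arrays, a difference of 0.48 ± 0.11 (adjusted p = 0.00505). Krt33a was not called: it read 16.54, 16.56 and 16.57 on the IMQ arrays, and mock replicate 2 (16.04) stood below the other mock arrays (17.27 and 17.31). Its difference was -0.32 ± 0.29 (adjusted p = 0.390), and -0.74 (adjusted p = 0.000788) without that array.

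Type II shaft keratins split. Krt81, a cortex keratin, read 16.39, 16.42 and 16.38 on the IMQ arrays and 17.14, 17.05 and 17.09 on the mock arrays, and fell by 0.70 ± 0.07 log2 units (adjusted p = 9.27e-05). Both probes of the cuticle keratin Krt82 fell, by 1.08 ± 0.12 (mMC005945, adjusted p = 0.000117) and 0.94 ± 0.15 (mMR027624, adjusted p = 0.000867). Krt84 and Krt86 were not called, at 0.35 ± 0.15 (adjusted p = 0.0820) and 0.11 (adjusted p = 0.709). Krt84 was called without mock replicate 3, at 0.45 (adjusted p = 0.0471). The 3 mock arrays of Krt86 spread over 16.06, 17.14 and 16.72, while its IMQ arrays read 16.75, 16.77 and 16.73.

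Among the inner root sheath keratins, 3 of 6 probes fell and 3 were not called. Krt26, of the sheath cuticle, read 15.99, 16.00 and 15.98 on the IMQ arrays and 16.51, 17.23 and 17.04 on the mock arrays. It fell by 0.93 ± 0.18 log2 units (adjusted p = 0.00207). Krt71, the type II partner made in all layers of the sheath, fell by 0.38 ± 0.10 (adjusted p = 0.00913), and Krt73 fell by 0.35 ± 0.11 (adjusted p = 0.0228). The type I sheath keratins Krt25, Krt27 and Krt28 differed by -0.01, 0.27 and 0.03 (adjusted p = 0.936, 0.165 and 0.867). Without mock replicate 2, Krt27 differed by 0.41 and was called (adjusted p = 0.0355). Krt75, the keratin of the companion layer, fell by 0.73 ± 0.09 (adjusted p = 0.000224).

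All 3 transcription factors fell. Foxn1, the gene mutated in nude mice, read 10.67, 10.71 and 10.64 on the IMQ arrays and 11.70, 11.54 and 11.47 on the mock arrays. It fell by 0.90 ± 0.09 log2 units (adjusted p = 9.31e-05). Hoxc13, whose loss leaves mice with brittle, fragile hair, read 14.92, 14.91 and 14.88 on the IMQ arrays and 15.83, 15.23 and 15.19 on the mock arrays. Mock replicate 1 stood above the other 2 mock arrays: the difference was -0.51 ± 0.16 (adjusted p = 0.0266), and -0.31 (adjusted p = 0.0251) without that array. Msx2 fell by 0.26 ± 0.07 (adjusted p = 0.0133). Of the 6 keratin-associated protein probes 3 fell, 1 for each gene: Krtap13 by 0.44 ± 0.12 (PH_mM_0007161, adjusted p = 0.0141), Krtap14 by 0.38 ± 0.08 (PH_mM_0007087, adjusted p = 0.00512) and Krtap15 by 0.53 ± 0.08 (PH_mM_0014471, adjusted p = 0.000557). The second probes gave -0.03 for Krtap13 (mMC021379, a dim probe at percentile 49.1), -0.25 for Krtap14 (PH_mM_0008221) and -0.08 for Krtap15 (PH_mM_0006317), none of them called. Without mock replicate 1 PH_mM_0008221 of Krtap14 was called, at -0.36 (adjusted p = 0.00963). Leaving out single arrays ended the calls of Hoxc13 and Krt73 without any 1 IMQ array (adjusted p up to 0.0728 and 0.0711), of Krt31 without mock replicate 2 or 3 (0.0589 and 0.0583), of Msx2 without IMQ replicate 3 (0.0560), and of Padi3 without mock replicate 2 (0.0581) or IMQ replicate 1 or 3 (0.0618 and 0.0585). The call of Krt73 was also lost without mock replicate 2 or 3 (0.0805 and 0.0716).

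**Figure D2:**
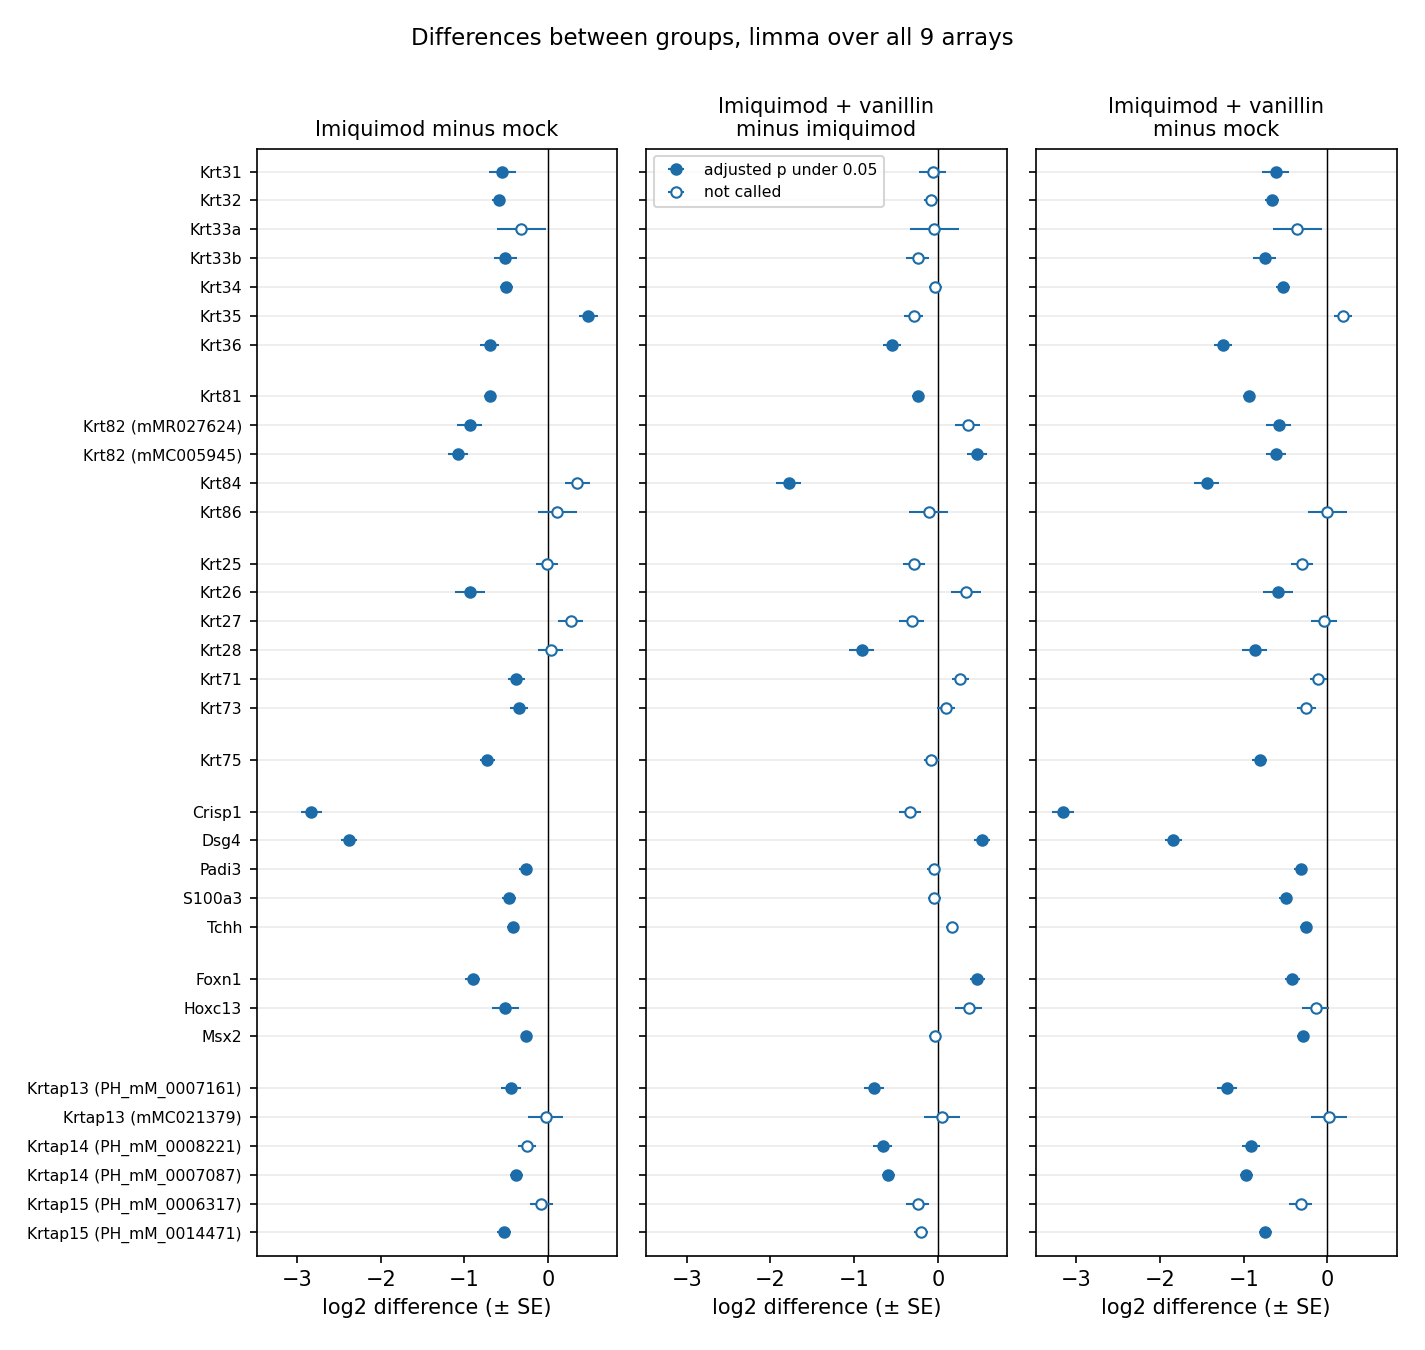
Fitted log2 difference of each probe (x axis, point with SE) in imiquimod against mock, imiquimod plus vanillin against imiquimod, and imiquimod plus vanillin against mock, with filled points at an adjusted p under 0.05. Filled points lie left of 0 for 23 probes in the first panel, 7 in the second and 23 in the third.

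The next comparison asked whether oral vanillin changed the hair genes of imiquimod-treated skin. Most did not pass the test: 3 of 33 probes rose, 7 fell and 23 were not called, while 24.3% of all probes were called higher, 17% lower and 41.2% in either direction. The vanillin and IMQ arrays did not overlap for 9 members higher and 16 lower with vanillin, against 32.8% and 25.7% of all probes. The median log2 difference was -0.08 over the members and 0.03 over all probes. The probes that rose were Dsg4, Foxn1 and 1 probe of Krt82, and those that fell were Krt84, Krt28, Krt36, Krt81, both Krtap14 probes and 1 Krtap13 probe.

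Krt84, a type II keratin known mainly from nail and the filiform papillae of the tongue, differed most. It read 11.48, 11.56 and 11.35 on the vanillin arrays against 13.24, 13.27 and 13.24 on the IMQ arrays, and fell by 1.78 ± 0.15 log2 units (adjusted p = 0.000452, 3.45-fold lower). Krt28, a type I keratin of the inner root sheath, read 14.86, 14.88 and 14.96 on the vanillin arrays and 15.77, 15.81 and 15.84 on the IMQ arrays, and fell by 0.91 ± 0.15 (adjusted p = 0.00269, 1.87-fold lower). Neither had been called in imiquimod against mock, and neither overlapped between the vanillin and IMQ arrays. Krt36 read 13.72, 13.63 and 13.81 on the vanillin arrays and 14.33, 14.21 and 14.27 on the IMQ arrays, and fell by 0.55 (adjusted p = 0.00631). Krt81 fell by 0.24 (adjusted p = 0.0276), a call lost without IMQ replicate 1, 2 or 3 or vanillin replicate 1 or 2 (adjusted p up to 0.0902).

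The keratin-associated proteins fell in 3 of 6 probes. The brighter Krtap14 probe read 16.06, 16.01 and 15.97 on the vanillin arrays and 16.62, 16.68 and 16.71 on the IMQ arrays, and fell by 0.66 ± 0.11 log2 units (adjusted p = 0.00292). The second Krtap14 probe, at 13.67, 13.56 and 13.49 on the vanillin arrays and 14.10, 14.22 and 14.16 on the IMQ arrays, fell by 0.59 ± 0.08 (adjusted p = 0.00187). Both probes of this gene thus moved by a like amount without overlap. Krtap13 (PH_mM_0007161) read 13.90, 13.74 and 13.46 on the vanillin arrays and 14.44, 14.42 and 14.52 on the IMQ arrays, and fell by 0.76 ± 0.12 (adjusted p = 0.00257). Its dim second probe gave 0.05 (adjusted p = 0.861). The Krtap15 probes gave -0.24 and -0.20 (adjusted p = 0.194 and 0.0671). Without mock replicate 1 both were called lower (adjusted p = 0.0393 and 0.0499).

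The 3 probes that rose belong to an adhesion protein, a transcription factor and a cuticle keratin. This comparison and that of imiquimod against mock share the IMQ arrays, so their values are not independent. Dsg4 read 8.73, 8.63 and 8.73 on the vanillin arrays and 8.05, 8.34 and 8.11 on the IMQ arrays, a difference of 0.53 (adjusted p = 0.00474). Foxn1 read 11.25, 11.13 and 11.06 on the vanillin arrays and 10.67, 10.71 and 10.64 on the IMQ arrays, a difference of 0.47 (adjusted p = 0.00541). Krt82 (mMC005945) read 12.99, 12.78 and 12.66 on the vanillin arrays and 12.34, 12.38 and 12.30 on the IMQ arrays, a difference of 0.47 (adjusted p = 0.0141), which was not called without IMQ replicate 3 (adjusted p = 0.0546). The groups did not overlap in any of the 3. The second Krt82 probe gave 0.36 (adjusted p = 0.0865) and Hoxc13 0.37 (adjusted p = 0.0998). Without mock replicate 1 both were called (adjusted p = 0.0422 and 0.00943). Krt35 was not called at -0.29 (adjusted p = 0.0569), but was called lower in 9 of 21 alternatives. Krt71, not called at 0.27 (adjusted p = 0.0521), was called higher in 6 of 21, and Tchh, at 0.17 (adjusted p = 0.0917), in 2. Krt25, not called at -0.28 (adjusted p = 0.0995), was called without vanillin replicate 3, at -0.41 (adjusted p = 0.0154). The number of member probes called was 17 without mock replicate 1, 16 when only the vanillin and IMQ arrays entered the fit and 19 with array weights, against 10 as reported.

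**Figure D3:**
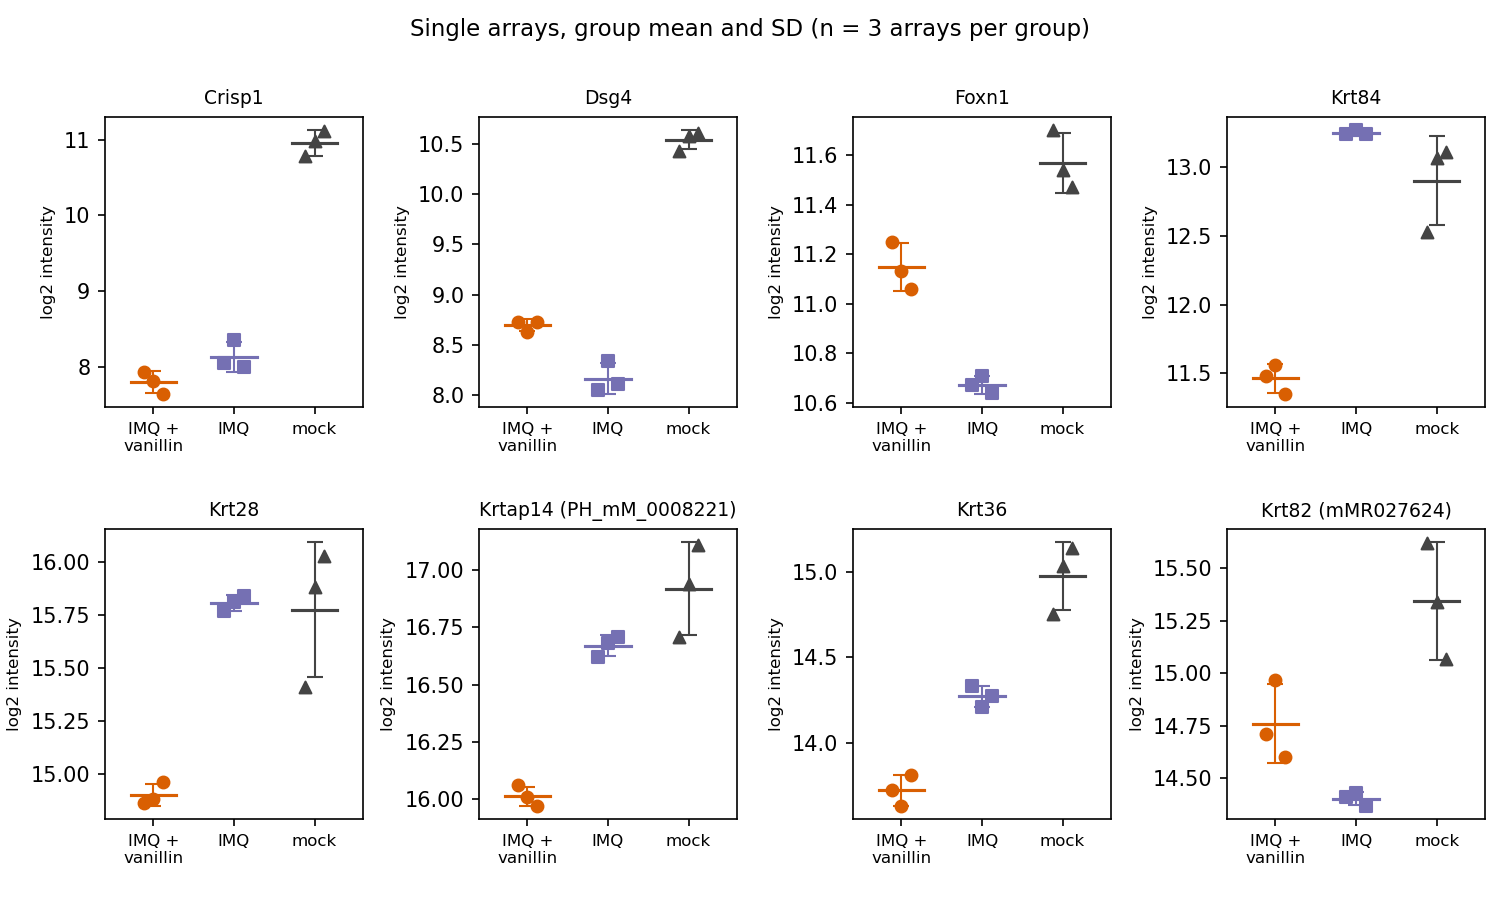
Log2 intensity (y axes, which differ and do not start at 0) of 8 members on the single arrays, with the group mean as a line and the SD as a bar (n = 3 arrays per group), in the order imiquimod plus vanillin, imiquimod, mock. For Krtap14 and Krt82 the brighter of 2 probes is drawn. For Krt82 this is mMR027624, which was not called in imiquimod plus vanillin against imiquimod, unlike mMC005945. Crisp1 lies near 8 in both imiquimod-treated groups, and Krt84 is lowest with vanillin.

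The last comparison set imiquimod with vanillin against mock skin, using arrays of both earlier comparisons. Again 23 of 33 probes fell, 0 rose and 10 were not called, against 14.7% of all probes called lower, 11.9% higher and 26.7% in either direction. For 22 members every vanillin array lay below every mock array, as for 20.3% of all probes. The median log2 difference was -0.58 over the members and 0.01 over all probes. On the single vanillin arrays the median member lay at -0.56, -0.45 and -0.58 relative to the mock mean. By role, the probes that fell were 5 of 7 type I and 4 of 5 type II shaft keratin probes, 2 of 6 inner root sheath keratins, Krt75, 5 of 5 shaft and sheath proteins, 2 of 3 transcription factors and 4 of 6 keratin-associated protein probes.

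Crisp1 read 7.93, 7.81 and 7.64 on the vanillin arrays and fell by 3.16 against mock (adjusted p = 1.31e-06, 8.96-fold lower). Dsg4 fell by 1.84 (adjusted p = 5.41e-06, 3.59-fold lower). These were again the largest falls among the members. Krt84 fell by 1.44 (adjusted p = 0.000185, 2.71-fold lower), Krt36 by 1.25 (adjusted p = 8.39e-05, 2.38-fold lower) and Krtap13 (PH_mM_0007161) by 1.20 (adjusted p = 0.000153, 2.29-fold lower). Krt84 stood at 12.53, 13.07 and 13.11 on the mock arrays, above all vanillin arrays. Krtap14 fell by 0.97 and 0.91 for its 2 probes (adjusted p = 7.17e-05 and 0.000399), Krt81 by 0.94 (adjusted p = 3.69e-05) and Krt28 by 0.87 (adjusted p = 0.00241). Foxn1 fell by 0.42 (adjusted p = 0.0101), and Hoxc13 was not called at -0.14 (adjusted p = 0.570). Krt35, higher with imiquimod alone, was not called here at 0.19 (adjusted p = 0.239), nor was Krt86 at 0.00 (adjusted p = 0.995). The calls of Krt26 (-0.59, adjusted p = 0.0357) and Tchh (-0.26, adjusted p = 0.0299) were lost in 10 and 11 of 21 alternatives, with adjusted p up to 0.109 and 0.133. Krt31, Padi3, Msx2 and the second Krt82 probe were not called without mock replicate 2 (adjusted p = 0.0717, 0.0585, 0.0593 and 0.0536), and all but Padi3 also lost their call without 1 or more of the vanillin arrays. With only the vanillin and mock arrays in the fit Foxn1 was not called (adjusted p = 0.0514), nor were these 4 probes (0.0646, 0.0806, 0.093 and 0.0636), Krt26 or Tchh. Probes that gained a call when 1 array was left out were Krt33a without mock replicate 2 (-0.77, adjusted p = 0.00145), Krt73 and the brighter Krtap15 probe without mock replicate 1 (-0.36 and -0.49, adjusted p = 0.0102 and 0.00538), and Krt25 without vanillin replicate 3 (-0.42, adjusted p = 0.022).

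Brightness bears on these values because most members lie where intensity is set by rank. Of the 697 probes with a mean log2 intensity of at least 15, 31.7% were called lower in IMQ against mock, 15.5% in vanillin against IMQ and 21.8% in vanillin against mock, with median differences of -0.07, 0.02 and -0.01. Of these 697 probes 24.7%, 20.8% and 19.9% were called higher, in the same order. Among the 19 members in that range 12, 3 and 11 were called lower (63.2%, 15.8% and 57.9%) and 0 higher. Their medians were -0.38, -0.06 and -0.36. The summed intensity of all members was 2218000 to 2314000 on the vanillin arrays, 2390000 to 2422000 on the IMQ arrays and 2896000 to 3197000 on the mock arrays, so neither imiquimod-treated group overlapped mock.

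Genes that lie next to each other did not all carry the same call. Krt33a, Krt33b, Krt34, Krt31, Krt32, Krt35 and Krt36 follow each other on chromosome 11 with 0 annotated protein-coding genes between them. With imiquimod Krt35 was called higher (0.48) while its neighbours Krt32 and Krt36 were called lower (-0.59 and -0.70). Krt82 and Krt84, neighbours on chromosome 15, differed with vanillin against IMQ by 0.47 (mMC005945) and -1.78. Krt25, Krt26, Krt27 and Krt28 also adjoin, and of these Krt26 alone was called in IMQ against mock and Krt28 alone in vanillin against IMQ. In the latter Krt25, Krt26 and Krt27 differed by -0.28, 0.34 and -0.31. They were called in 2, 3 and 3 of 21 alternatives, so the contrast of calls depends on the threshold. The differences between neighbours were not tested.

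Other genes of the follicle were counted beside the members. Of 16 probes for hair proteins outside the rule, 10 fell and 2 rose in IMQ against mock, 5 fell and 3 rose in vanillin against IMQ, and 11 fell and 2 rose in vanillin against mock. Their medians were -0.74, -0.03 and -0.74. Krt39, another type I hair keratin, fell by 2.03 in IMQ against mock (adjusted p = 3.21e-06), and Dsc2, a desmosomal cadherin, fell by 1.62 (adjusted p = 7.02e-06). Tgm5, a transglutaminase also made in the epidermis, rose by 1.40 (adjusted p = 1.27e-05). Of 31 probes for regulators of follicle growth, 16 fell and 5 rose in IMQ against mock. In vanillin against IMQ 4 fell and 5 rose, and in vanillin against mock 13 fell and 1 rose. Of all probes, 29.6%, 17% and 14.7% were called lower and 24%, 24.3% and 11.9% higher in the 3 comparisons. In vanillin against IMQ the regulators lay below both shares, at 12.9% lower and 16.1% higher. Fgf5, the growth factor that ends the growth phase and is mutated in angora mice, fell by 1.78 in IMQ against mock (adjusted p = 4.47e-06) and by 1.87 in vanillin against mock (adjusted p = 4.25e-06). Lhx2, a transcription factor of hair germ and stem cells, differed by -1.35, 0.52 and -0.83 in the 3 comparisons (adjusted p = 2.51e-05, 0.00663 and 0.000657). Gli1, a target of hedgehog signalling, fell by 1.02 in IMQ against mock (adjusted p = 0.00014) and was 0.75 higher in vanillin against IMQ (adjusted p = 0.00231). Bmp4, a growth factor that restrains matrix proliferation, rose by 1.84 ± 0.30 in IMQ against mock (adjusted p = 0.000972). It fell by 1.52 ± 0.30 in vanillin against IMQ (adjusted p = 0.00542). Vanillin replicate 3 (12.88) stood above the other vanillin arrays (11.75 and 11.75).

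Markers of other cells were counted as well. All 8 melanocyte probes were called lower in IMQ against mock. In vanillin against IMQ 5 of the 8 rose and 1 fell, where 24.3% of all probes were called higher and 17% lower. Their summed intensity was 72830 to 76470 on the vanillin arrays, 73180 to 73900 on the IMQ arrays and 171900 to 176500 on the mock arrays. In vanillin against mock 6 of the 8 were called lower and 0 higher, against 14.7% and 11.9% of all probes. Relative to the mock mean, the median melanocyte probe lay at -1.19, -1.1 and -1.07 on the vanillin arrays. On the IMQ arrays it lay at -0.83, -0.86 and -0.96. Adipocyte markers fell in 9 of 12 probes in IMQ against mock and rose in 8 in vanillin against IMQ, with sums of 279700 to 292900 on the vanillin arrays, 252400 to 255500 on the IMQ arrays and 374200 to 396100 on the mock arrays. Skeletal muscle markers fell in 5 of 8 probes in IMQ against mock and rose in 7 in vanillin against IMQ, with sums of 397500 to 417900, 316700 to 322400 and 386600 to 432900 on the vanillin, IMQ and mock arrays. Interfollicular epidermis went the other way: 6 of 12 probes rose and 1 fell in IMQ against mock, and sums were 1843000 to 1951000 on the vanillin arrays, 1839000 to 1873000 on the IMQ arrays and 1278000 to 1322000 on the mock arrays. Krt1, a keratin of differentiating epidermis, rose by 3.43 log2 units in IMQ against mock, the largest rise in that list. The median of the list was 0.42 and its lowest value -0.35, and 5 of the 12 probes were not called. Proliferation genes fell in 9 of 12 probes in IMQ against mock and rose in 5 in vanillin against IMQ. Bulge and hair germ markers fell in 7 of 15 probes and rose in 1 in IMQ against mock, and in vanillin against IMQ 7 rose and 3 fell. Sebaceous gland markers rose in 6 of 15 probes and fell in 4 in IMQ against mock, and dermal papilla markers rose in 3 of 14 and fell in 2. The median differences of these 2 lists were 0.12 and 0. Of all probes, 24% were called higher and 29.6% lower in that comparison. Of all listed markers 0 were at the intensity floor on any array, and the lowest log2 intensity was 3.85. The part of these lists in the hair gene values was not tested.

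**Figure D4:**
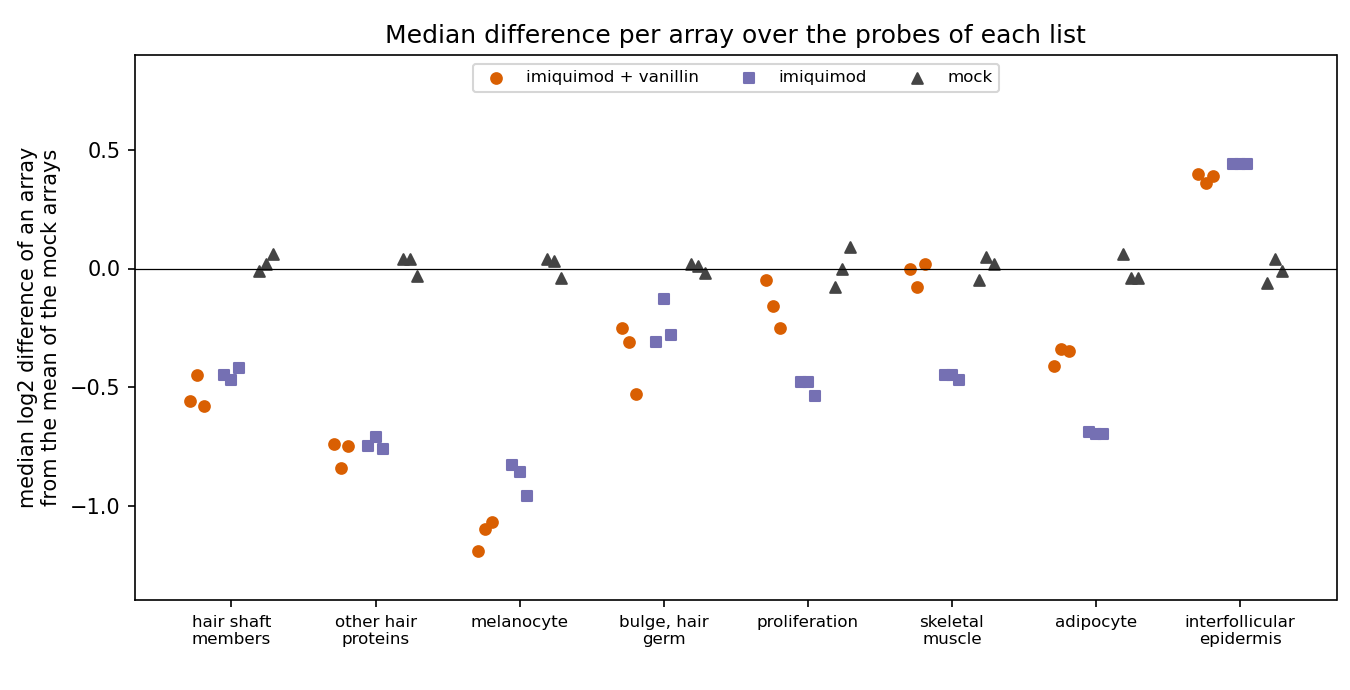
Median log2 difference of each array from the mean of the mock arrays (y axis) over the probes of the hair shaft members and of 7 other gene lists (x axis), with 3 points per group. Hair shaft members lie between -0.58 and -0.42 on the 6 imiquimod-treated arrays, and melanocyte markers lie below them.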

How the data were processed

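Cy5-labelled total RNA of the 9 samples was read on arrays of a single colour, as the labels' protocols state. The deposited table holds linear probe intensities, which lay on nearly 1 distribution on every array. Limma is the tool in the submitters' processing notes, without a version; scanner and background correction were not given in the sources used here. Values under 1 were set to 1 and log2 was taken, with no further normalization or filter. All 26423 probes were fitted with limma 3.58.1 in R 4.3.3, using the 3 groups as coefficients and empirical Bayes moderation. P-values are two-sided and were adjusted with Benjamini-Hochberg across the whole array, and adjusted values under 0.05 were taken as calls. Array number limits the precision. The procedure was tested on simulated data with 200 changed probes.

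Gene names come from the platform annotation, which gives 20377 probes a symbol; all 29 member genes matched a current symbol. Chromosomes and promoters come from RefSeq (GRCm38.p6). All member probes are named, and genes of other lists only where called in some comparison, apart from Acta1, given for its brightness. The members and lists were chosen with earlier results of these data known. The keratin-associated proteins were not split by protein composition, since protein sequences were not used here. Alternatives were 11 settings of the fit or table, leaving out each of 9 arrays in turn, and 2 settings added after the data were seen.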

Additional observations from a re-analysis of the deposited data

How the results depend on the processing

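Of the called member probes, 17 of 24 kept their call under every alternative in IMQ against mock. The counts were 8 of 10 in vanillin against IMQ and 16 of 23 in vanillin against mock. Probes not called gained a call with the same sign under some alternative in 4, 11 and 4 cases. In IMQ against mock Krt86 also gained a call, with its sign changed. When single arrays were left out, the number of member probes called ran from 20 to 25 in IMQ against mock (24 as reported), 8 to 17 in vanillin against IMQ (10) and 18 to 25 in vanillin against mock (23). The median member difference then ran from -0.48 to -0.41, -0.09 to -0.07 and -0.58 to -0.52. In vanillin against IMQ the count was 19 with array weights and 16 with only the compared groups in the fit. Array weights moved the median of vanillin against mock to -0.51, and the cause of that move was not tested. They turned Krt86 in IMQ against mock to a called -0.28 (adjusted p = 0.0465). The weights of mock replicates 1, 2 and 3 were 0.22, 3.35 and 0.513, and Krt86 read 16.06, 17.14 and 16.72 on these arrays. The replicate number as a block gave 24, 9 and 22 called member probes; Krt81 in vanillin against IMQ (adjusted p = 0.0615) and Tchh in vanillin against mock (0.0712) were not called with it. Same-numbered arrays exceeded a correlation of 0.1 in 2 of 9 pairs (-0.265 to 0.222), so the numbers are not taken as pairs. Centring on bright probes and group-wise array weights, both chosen after seeing the data, gave 24, 10 and 23, and 26, 13 and 21. Groups of 3 arrays are too small for an outlier test, and differences near an array's brightest ranks are bounded by the shared distribution.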

Other observations

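A probe outside the rule carries 5430421N21Rik, an older name that the reference table gives for both Krt83 and Krt86, so its gene is not settled. It was chosen after its values were seen. It read 16.48, 16.48 and 16.49 on the vanillin arrays, 16.95, 16.97 and 16.85 on the IMQ arrays and 17.22, 17.29 and 17.39 on the mock arrays (log2 intensity), without overlap between any groups. In limma it differed by -0.38 ± 0.08 in IMQ against mock (adjusted p = 0.0044), by -0.44 ± 0.08 in vanillin against IMQ (adjusted p = 0.00421) and by -0.82 ± 0.08 in vanillin against mock (adjusted p = 0.000145). The probe named Krt86 was not called in any of these comparisons, and the difference between the probes was not tested.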
